A study of Arabidopsis thaliana with 12 samples.

Results

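The 3 genes described here encode proteins tied to the thylakoid lumen, the space enclosed by the photosynthetic membranes of the chloroplast. AT4G24930 encodes a thylakoid lumen protein, AT1G76450 a protein with a PsbP domain, and AT5G46390 a peptidase of the type that processes the C-terminal ends of proteins. They are 3 of the 691 genes that had a single-gene probe, among 3439 probes in all, and their probes are numbered 3665, 2229 and 1690. They were chosen because earlier results on these data had placed them among the genes that differed most with DCMU, so their own differences are given as a description and without a test.

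The study measured total RNA of Arabidopsis thaliana on 1-channel arrays. All plants were wild type of the ecotype C24. One group (6 columns) grew under light that favours photosystem I, called PSI light here. The other (6 columns) grew under the same light and received DCMU, which inhibits electron transport. Dose, duration, plant age and tissue are not stated in the labels, and none of the green-tissue or root markers looked up here had a single-gene probe with which to check the tissue.

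The lumen holds soluble proteins that assist the photosystems in the surrounding membrane. PsbP is an extrinsic subunit that stabilises the oxygen-evolving side of photosystem II, and proteins with a PsbP domain form a wider family, several of which act in the assembly of thylakoid complexes. The D1 reaction centre protein of photosystem II is made with a C-terminal extension, which a C-terminal processing peptidase in the lumen removes before the manganese cluster that splits water can be built. Nuclear-encoded lumen proteins enter through the Sec or the twin-arginine translocase of the thylakoid membrane. DCMU occupies the plastoquinone site of D1 and stops electron flow out of photosystem II, while PSI light drives mainly the other photosystem.

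Each deposited value was a relative intensity, with the brightest probe of a column at 100. The 6 columns in PSI light had medians of 0.542 to 0.584, and those with DCMU 0.386 to 0.504. Log2 values were quantile normalised and have a floor at a normalised intensity of 0.110 (-3.19 on the log2 scale), which was set after normalisation. Columns numbered 1 and 2, 3 and 4, and 5 and 6 of a group resembled each other more closely (Spearman 0.976 to 0.991) than other columns of the group did (0.921 to 0.960). The mean of such a pair is used below as a single replicate (n = 3 per group). No label speaks of separate cultures or plants. The p-values and SEs therefore rest on the spread between these pairs, moderated over all probes, and that spread may be technical. In bulk RNA, fewer cells of a type and less RNA per cell cannot be told apart.

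AT4G24930 and AT5G46390 were higher with DCMU and AT1G76450 was lower. The log2 differences (PSI light with DCMU minus PSI light) were 2.40 for AT4G24930, 2.51 for AT5G46390 and -1.60 for AT1G76450. For each of the 3 genes the 6 columns of one group did not overlap the 6 of the other. Across all probes 43.5% had columns that did not overlap, 18.5% with DCMU higher and 25.0% with DCMU lower. By size of difference AT4G24930 ranked 38 and AT5G46390 ranked 28 among all probes that were higher, and AT1G76450 ranked 31 among those that were lower. These ranks and differences are what the genes were chosen on, and nothing is read from them.

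**Figure D1:**
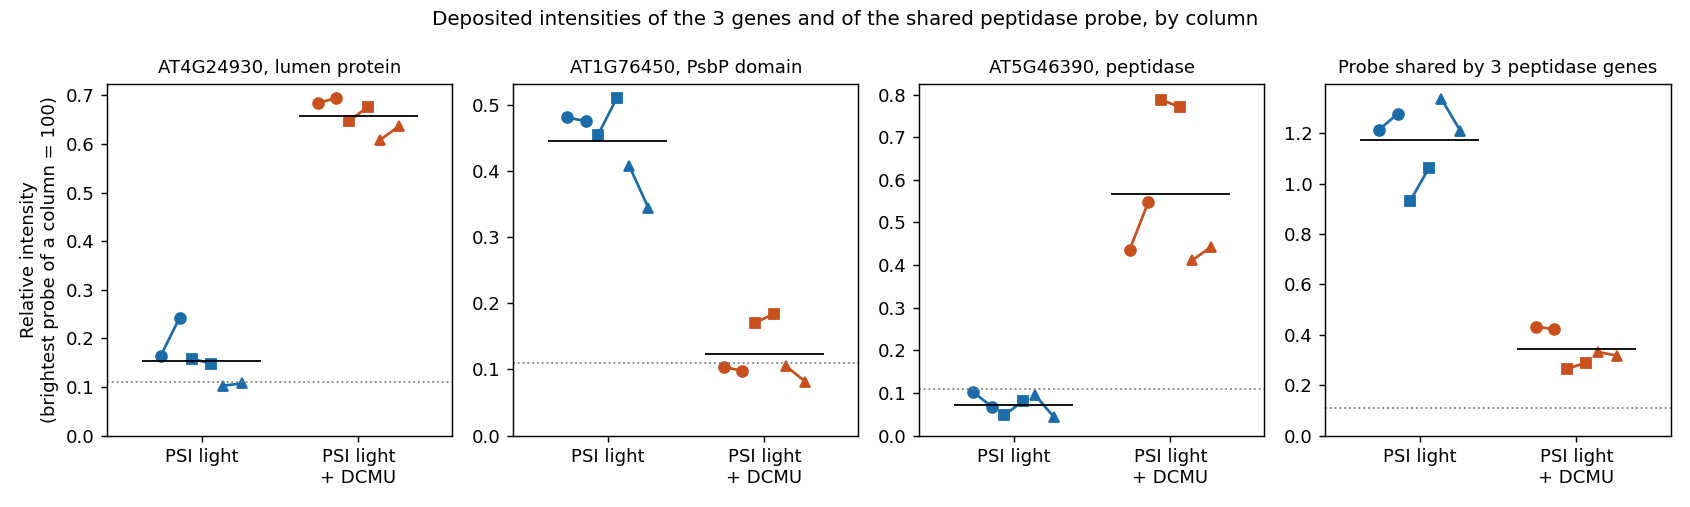
Deposited relative intensity (linear axis, brightest probe of a column at 100) of the 3 genes and of a probe annotated to 3 peptidase genes, for 6 columns in PSI light (blue) and 6 with DCMU (orange). Joined symbols are the 2 columns counted as 1 replicate, the black line is the mean of 6 columns and the dotted line marks 0.110, the floor used after normalisation; the single-gene probe of AT5G46390 lies under that line throughout PSI light, and the shared peptidase probe moves the other way.

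AT4G24930, the lumen protein gene, had deposited intensities of 0.103 to 0.242 in the 6 PSI light columns, with a median of 0.153. With DCMU they were 0.609 to 0.695, with a median of 0.662. All 6 DCMU columns were thus brighter than the brightest PSI light column, the dimmest of them 2.51 times. On the normalised log2 scale the level was -2.80 ± 0.39 without and -0.39 ± 0.07 with DCMU (SD, n = 3), which is 5.29-fold. The ratio of the mean deposited intensities was smaller, 4.28. The spread in PSI light came mostly from columns 1 and 2, whose mean was -2.34, against -3.00 for columns 3 and 4 and -3.04 for columns 5 and 6. With DCMU the same 3 pairs stood close together, at -0.47, -0.38 and -0.33. No column of this gene was at the floor after normalisation, although columns 5 and 6 in PSI light had deposited intensities under 0.110.

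AT1G76450, the PsbP-domain gene, moved in the opposite direction. In PSI light its deposited intensities lay between 0.345 and 0.511 (median 0.465). With DCMU they lay between 0.0817 and 0.184 (median 0.104). The dimmest PSI light column was 1.87 times the brightest DCMU column. Normalised log2 levels were -1.31 ± 0.14 in PSI light and -2.92 ± 0.33 with DCMU (SD, n = 3), a 3.04-fold lower level. With DCMU the pairs stood at -3.19, -2.56 and -3.00, so columns 3 and 4 were the highest. Columns 1 and 2 of that group were at the floor, which limits how low the mean could go. In the deposited intensities, without the floor, the ratio of the group means was 3.60.

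The single-gene probe of AT5G46390, the peptidase gene, lay at the floor without DCMU. Its PSI light intensities of 0.0425 to 0.103 (median 0.0746) were at the floor after normalisation in each of the 6 columns, and the SD of 0 in that group is therefore an effect of the floor. With DCMU the intensities were 0.411 to 0.788, with a median of 0.496. The dimmest DCMU column was 3.99 times the brightest PSI light column. The normalised log2 level with DCMU was -0.67 ± 0.46 (SD, n = 3), which is 5.72-fold over the floor, and the ratio of the mean deposited intensities was 7.78. The 3 DCMU pairs stood at -1.02, -0.15 and -0.85. Columns 3 and 4 were again the highest, as for AT1G76450, while AT4G24930 did not stand out in them.

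The place of each probe among all probes of its column does not depend on the scaling between arrays. AT4G24930 lay at percentiles 8.99 to 21.2 of its columns in PSI light and, with DCMU, at 66.2 to 71.7. AT1G76450 lay at 32.5 to 43.9 and, with DCMU, at 7.39 to 14.4. AT5G46390 lay at 4.51 to 8.29 and, with DCMU, at 42.4 to 76.0. Columns that do not overlap in intensity tend to be apart in rank as well, so the ranks are a description and add no support. These are ranks of probe brightness, which do not rank the transcripts by abundance.

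**Figure D2:**
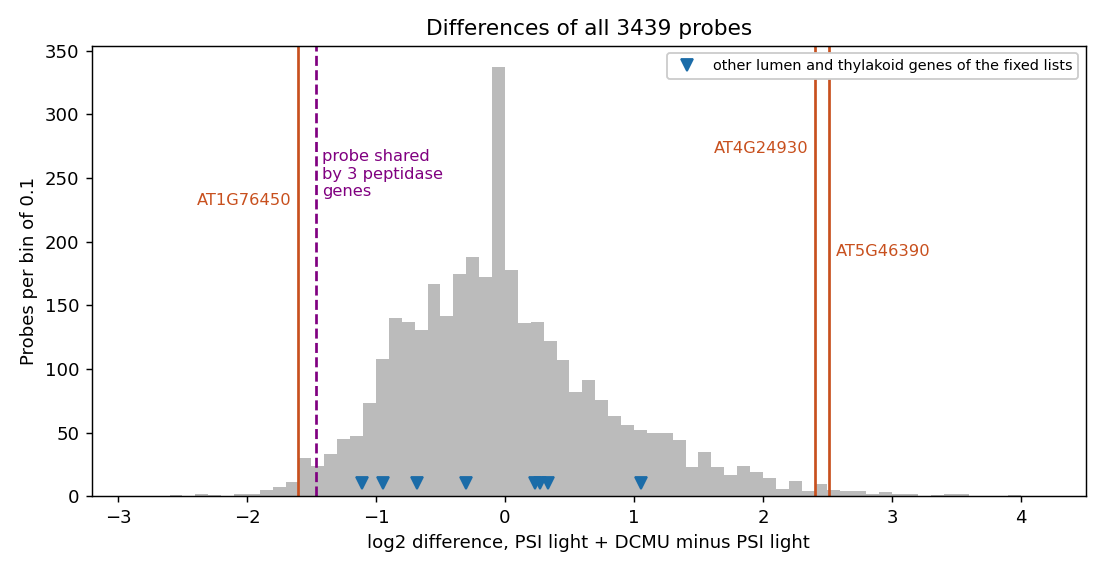
Number of probes (of 3439) per bin of 0.1 in the log2 difference, PSI light with DCMU minus PSI light, after quantile normalisation. Orange lines mark AT1G76450 (-1.60), AT4G24930 (2.40) and AT5G46390 (2.51), the dashed line the shared peptidase probe (-1.46), and triangles the 8 list genes that were not at the floor in every column; the tall bin at 0 includes 167 probes at the floor in all 12 columns.

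AT5G46390 was also named on a second probe, numbered 568, which the platform annotation assigns to 3 genes. They are AT5G46390, AT4G17740 and AT3G57680, called CTPA2, CTPA and CTPA1 in the fixed list of carboxyl-terminal peptidases. That probe was lower with DCMU, opposite to the single-gene probe. In PSI light its deposited intensities lay between 0.931 and 1.33 (median 1.21). With DCMU they lay between 0.264 and 0.431 (median 0.324). The groups did not overlap, and the dimmest PSI light column was 2.16 times the brightest DCMU column. Normalised log2 levels were 0.03 ± 0.19 and -1.43 ± 0.34 (SD, n = 3), a 2.76-fold lower level. With DCMU the pairs of columns stood at -1.24, -1.82 and -1.24, so columns 3 and 4, the highest for AT5G46390, were the lowest here. Because it names AT5G46390 in the contrast the genes were chosen on, no test is given for this probe. It is not known which of its 3 genes the shared probe measured.

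Another peptidase probe, numbered 637, is annotated to the other 2 genes of that list, AT4G17740 and AT3G57680, and not to AT5G46390. Neither of these 2 genes had a probe of its own. Which of the 3 peptidases processes the D1 protein was not examined, and no peptidase activity was measured. The rise of AT5G46390 therefore cannot be read as a rise of that activity. Probe 637 fell with DCMU, from -1.55 ± 0.15 to -2.15 ± 0.15 (SD, n = 3). The log2 difference was -0.60 (SE 0.11, limma adjusted p = 0.0138). This test is of probe 637 alone. The difference between the 3 probes that name a peptidase of this list was not tested, and none of the 3 shows which transcript of the family was the more abundant.

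Other genes were looked up in 10 lists of 111 genes. Most lists cover the lumen, thylakoid protein handling or photosystem II assembly. The rest hold 8 green-tissue and 7 root markers, of which none had a probe of its own. Of the 108 genes that are not members, 10 had a probe of their own, 17 were named only on probes shared with other genes, and 81 were named on no probe. In limma's model of the 3 pairs per group, with Benjamini-Hochberg adjustment over all probes and a threshold of 0.05, 1 of the 10 rose and 3 fell, while the other 6 missed the threshold. Of all single-gene probes 43.6% passed, 18.9% higher and 24.7% lower, so the 4 of 10 was close to that background. The median log2 difference of the 10 was 0, against -0.06 over all probes. AT5G13410 and AT5G52970 were listed at 0 in all 12 columns and could not pass; without them the median was -0.03.

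LPA19, a Psb27 homologue known to assist the C-terminal processing of the D1 protein, fell 1.92-fold with DCMU. Its deposited intensities, as means of the 3 pairs, were 1.98, 1.63 and 1.70 in PSI light and 0.775, 0.665 and 0.747 with DCMU. All PSI light columns were above all DCMU columns. On the log2 scale it went from 0.69 ± 0.12 to -0.25 ± 0.15 (SD, n = 3), with a difference of -0.94 (SE 0.11, limma adjusted p = 0.00339). After a correction for neighbours in the probe numbering it was -0.52 (adjusted p = 0.0115), still past the threshold. PSB27 is the related protein that binds photosystem II during its assembly and repair. It had a log2 difference of -0.30 (SE 0.13, limma adjusted p = 0.114) and did not pass. In 4 of 31 other settings it did.

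CHL, the chloroplastic lipocalin that protects thylakoids under oxidative stress, fell 2.15-fold, from -1.18 ± 0.18 to -2.29 ± 0.38 log2 (SD, n = 3; SE of the difference 0.22, limma adjusted p = 0.0154). Its pairs had deposited intensities of 0.566, 0.445 and 0.471 in PSI light and 0.260, 0.159 and 0.183 with DCMU. The 2 groups did not overlap, and columns 3 and 4 were the lowest pair in both. Leaving out the pair of PSI light columns 1 and 2 raised its adjusted p to 0.0530, and leaving out columns 5 and 6 of that group raised it to 0.0529.

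SECE1, a subunit of the Sec translocase of the thylakoid membrane, fell 1.61-fold. Its log2 level was 0.17 ± 0.02 in PSI light and -0.51 ± 0.20 with DCMU (SD, n = 3), with an SE of 0.11 and a limma adjusted p of 0.00855. The deposited intensities of its pairs were 1.35, 1.23 and 1.24 in PSI light and 0.786, 0.561 and 0.507 with DCMU, with no overlap. After a correction for neighbours in the probe numbering the difference was -0.28 (adjusted p = 0.106), so the call was lost. It was kept in 30 of 31 other settings.

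AT1G74070, from the list of lumen immunophilins, was the gene that rose, 2.07-fold. Its pairs had deposited intensities of 0.398, 0.611 and 0.782 in PSI light and 1.18, 0.870 and 0.776 with DCMU, so that columns 5 and 6 of both groups were close to each other before normalisation. Normalised log2 levels were -0.95 ± 0.49 and 0.10 ± 0.19 (SD, n = 3), with an SE of 0.28 and a limma adjusted p of 0.0352. The call was lost with no scaling (0.69, adjusted p = 0.130) and with equal totals (0.78, adjusted p = 0.102). Dropping columns 3 and 4 of the PSI light group also ended it (adjusted p = 0.0821), as did dropping any DCMU pair (adjusted p = 0.0780 to 0.102). Adding a replicate block to the model ended it too (adjusted p = 0.0957).

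The remaining measured genes did not pass in the main model. PSAN, a lumenal subunit of photosystem I, had a log2 difference of 0.24 (limma adjusted p = 0.323), and of 0.63 (adjusted p = 0.0242) after the correction for neighbours in the probe numbering. SPPA, a thylakoid protease, stood at 0.33 (adjusted p = 0.361) and passed in 2 of 30 other settings. AT5G35100, from the immunophilin list, stood at 0.27 (adjusted p = 0.101) and changed sign to -0.090 with no scaling. It passed in 4 of 31 other settings. No other gene of the PsbP family had a probe of its own.

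**Figure D3:**
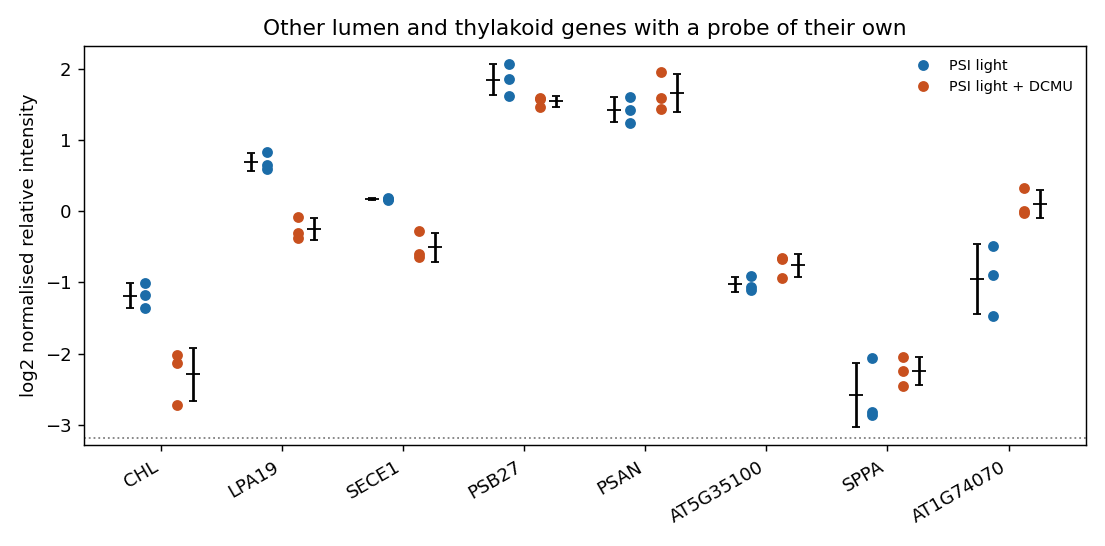
Normalised log2 relative intensity of the 8 list genes that were not at the floor in every column. Coloured points are the 3 pair means of a group (blue PSI light, orange PSI light with DCMU), black bars their mean ± SD and the dotted line the floor; CHL, LPA19 and SECE1 lie lower and AT1G74070 higher with DCMU, and the other 4 did not pass the test.

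In all, 14 shared probes named at least 1 list gene and no member, and probe 637, described above, is among them. Of these 14, 3 were higher, 3 lower (probe 637 included) and 8 did not pass, with log2 differences of -0.75 to 1.83 and a median of -0.05. The lowest, probe 3446, names a green-tissue marker, as do probes 665 and 1872. Across all probes 18.1% were called higher and 25.0% lower in the same model (1483 of 3439 in all, or 43.1%). The intensity of such a probe cannot be given to any 1 of its genes. The highest of the 14, probe 4492, is annotated to 2 genes of the immunophilin list and went from -3.16 to -1.33 (adjusted p = 0.00158). The single probe with a further PsbP-family gene, shared with another gene, was at the floor in both groups.

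Genes whose pattern was most like that of each member were taken from the other single-gene probes with at least 6 columns above the floor, 641 in number, by Pearson correlation over the 12 columns. These correlations describe 12 columns that form 6 pairs and 2 groups, and are set largely by the difference between the groups. For AT4G24930 they were AT1G72540 (0.992), AT2G23160 (0.987), AT4G14330 (0.987) and AT3G56330 (0.986). For AT1G76450 they were AT3G06570 (0.985), AT2G37750 (0.983), AT3G58570 (0.979) and AT4G01810 (0.973). For AT5G46390 they were AT3G25680 (0.994), AT4G08940 (0.983), AT1G51080 (0.982) and AT5G13260 (0.977).

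None of these 12 genes is in the fixed lists. Only 8 list genes other than the members could have been among the 641 candidates, so this absence was likely and nothing is read from it. The 4 genes most like AT1G76450 lay between -0.74 and -0.21 in PSI light and between -2.18 and -0.93 with DCMU (log2 group means). AT3G25680, the nearest to AT5G46390, likewise lay at the floor throughout PSI light and stood at -0.80 ± 0.27 with DCMU (SD, n = 3). It met the condition of 6 columns above the floor through the DCMU group alone, so its likeness rests on shared floor values and 3 DCMU pairs. AT5G13260 was at the floor in 5 PSI light columns. Of the genes most like AT4G24930, AT4G14330 was at the floor in 4, AT3G56330 in 3, AT2G23160 in 2 and AT1G72540 in 1. These genes had no DCMU column at the floor, so the DCMU group alone met the condition for them too. After removal of the group means, the correlations of the 4 genes with AT4G24930 were 0.62 to 0.85, with AT1G76450 0.71 to 0.82 and with AT5G46390 0.34 to 0.91. Among the members, AT4G24930 and AT5G46390 correlated at 0.96 over the 12 columns and at 0.06 after the group means were removed. AT1G76450 and AT5G46390 correlated at -0.90 and 0.80, and AT4G24930 and AT1G76450 at -0.93 and 0.21. After removal of the group means AT5G46390 varied only among the 3 DCMU pairs, because of the floor.

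Earlier results on these data had found that probes with neighbouring numbers tended to have similar differences. Around AT4G24930, 3 of the 6 nearest probes were higher and 3 lower with DCMU, from -0.72 to 1.11. Around AT1G76450, 2 were higher and 4 lower, from -1.27 to 3.98, and the highest of these was the next probe in the numbering. Around AT5G46390, probe 1688 was at the floor in both groups, and the other 5 nearest probes ranged from -1.08 to 1.21. The median difference of the 51 probes centred on each member was -0.03, -0.01 and -0.05 in the same order. With the running median of neighbours subtracted, the members stood at 2.40, -1.58 and 2.65.

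**Figure D4:**
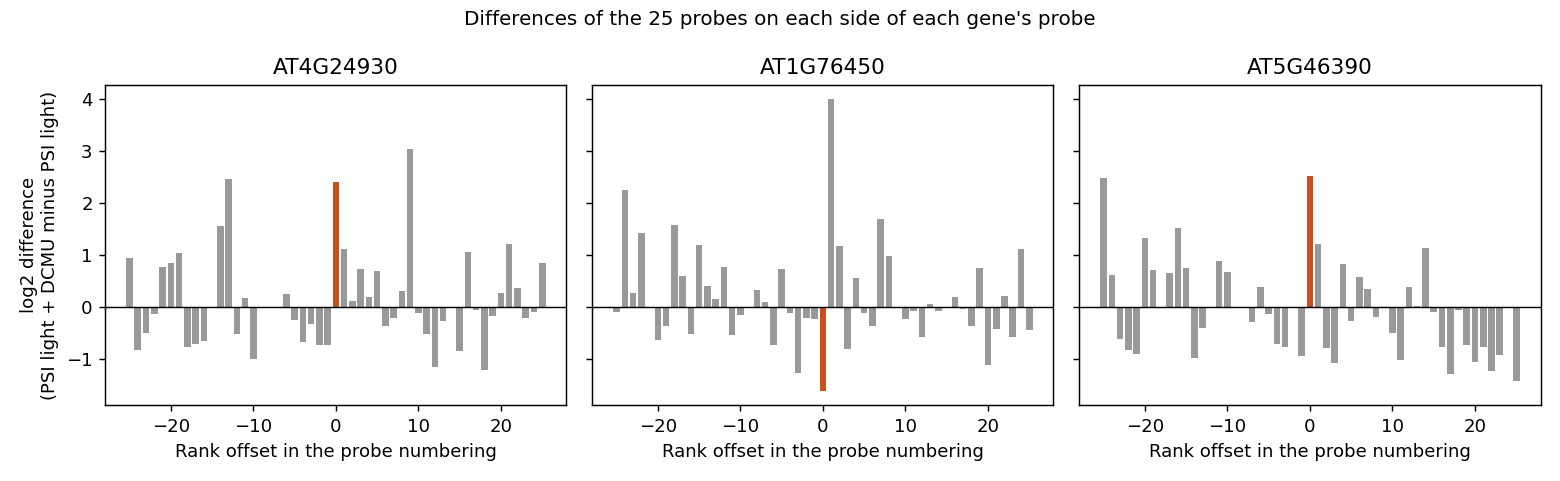
Log2 difference (PSI light with DCMU minus PSI light) of the 25 probes on each side of each member in the order of the probe numbers, with the member in orange. AT1G76450 and AT5G46390 have the largest difference in their own direction among the 51 probes shown, and AT4G24930 ranks 3.

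The differences of the 3 genes depended more on the treatment of dim values than on the scaling. Without scaling between arrays they were 2.15 for AT4G24930, -1.80 for AT1G76450 and 2.35 for AT5G46390, while the median of all probes was -0.32 in that setting. With the floor at the 10th percentile of the positive values in place of the 5th they were 2.12, -1.27 and 1.92. With an offset added in place of the floor they were 1.77, -1.11 and 2.09. Left out in turn, the 6 pairs of columns gave 2.22 to 2.58, -1.83 to -1.49 and 2.32 to 2.73. The genes were picked for large differences and their groups do not overlap, so that an unchanged direction here is no sign of stability.

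**Figure D5:**
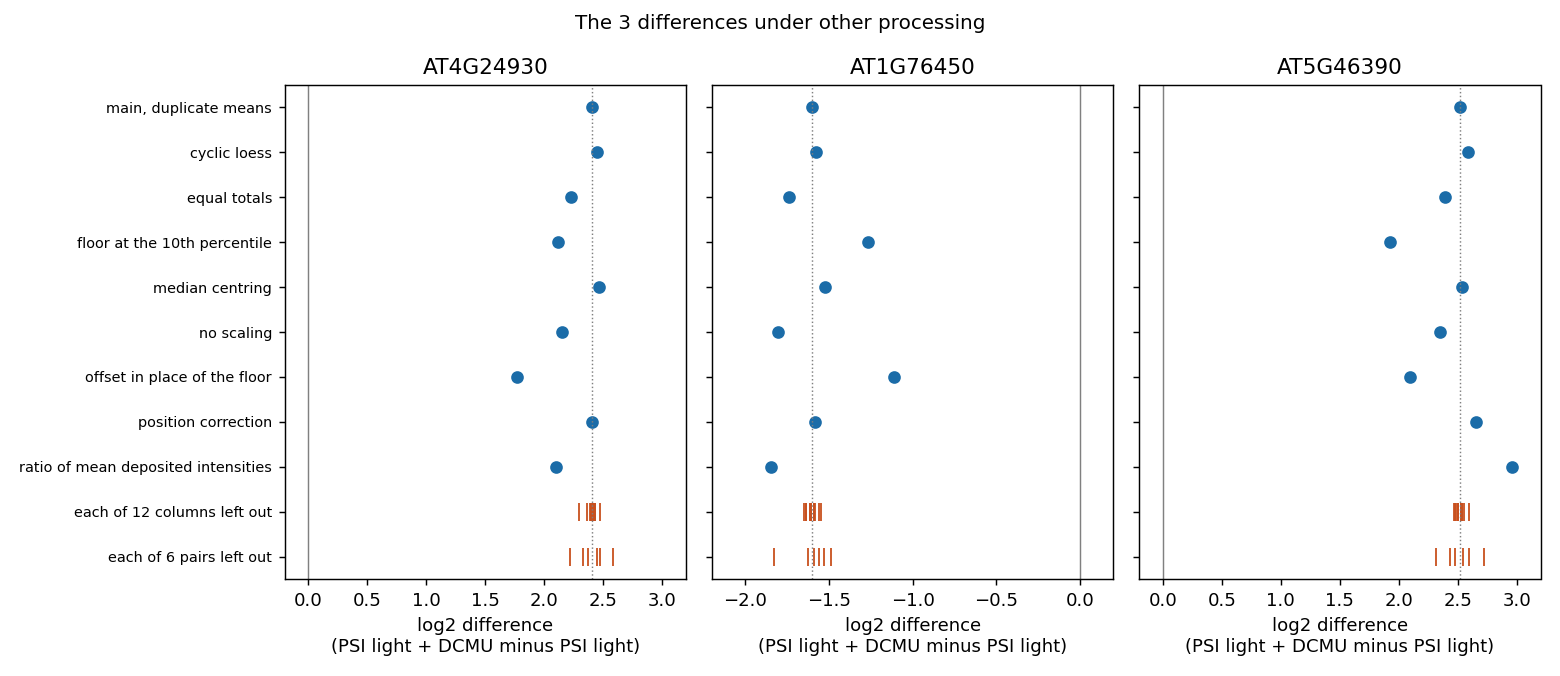
Log2 difference (PSI light with DCMU minus PSI light) of the 3 genes under the main processing, other scalings, other treatments of dim values (blue points) and with each of 12 columns or 6 pairs left out (orange ticks); the dotted line is the main value and the solid line 0. Values move furthest towards 0 with the offset for AT4G24930 and AT1G76450, and with the higher floor for AT5G46390.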

How the data were processed

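The values were linear relative intensities in a deposited table of 3439 probes and 12 columns. The labels do not say how the authors quantified, background-corrected or scaled this intensity. Columns were grouped by their titles. Intensities were quantile normalised, raised to a floor at percentile 5 of the values above 0 (0.110) and turned to log2, which understates differences of dim probes. The 2 columns of each pair were averaged, and PSI light with DCMU was compared with PSI light by limma's moderated linear model (limma 3.58.1, R 4.3.3) over all probes, with Benjamini-Hochberg adjustment at 0.05. The pairs rest on the correlations between columns; the labels do not state them. The model was tested on simulated data. Figures used Python 3.11.15 and matplotlib 3.10.9. Arrays have no read depth, and their number limits the precision.

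Gene names came from the platform annotation, updated with TAIR10.1: 692 probes had 1 gene, 870 several and 1877 none. No build is named in the files, and coordinates are left out. The members and gene lists were chosen with earlier results of these data known. Named genes were the members, every list gene with a probe of its own, and the 4 single-gene probes most correlated with each member; probes near a member were given by number. Shared probes that name a list gene, and the genes' own brightness ranks, were added after the values were seen. Alternatives were other scalings, floors, variance models, a position correction, 12 columns as samples, columns or pairs left out, and a replicate block. Same-numbered pairs of the groups deviated together at 0.099, 0.306 and 0.267.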

Additional observations from a re-analysis of the deposited data

How the results depend on the processing

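The members' differences kept their sign in the alternatives run, as their choice made likely. They moved by more than 1 SD between replicates with the floor at the 10th percentile (2.12 for AT4G24930, -1.27 for AT1G76450, 1.92 for AT5G46390), with an offset (1.77, -1.11, 2.09) and, for 2 of them, as the ratio of mean deposited intensities, an alternative chosen after seeing the data (2.10 for AT4G24930, 2.96 for AT5G46390). Without 1 column they were 2.29 to 2.47, -1.65 to -1.55 and 2.47 to 2.59, and without 1 pair 2.22 to 2.58, -1.83 to -1.49 and 2.32 to 2.73. None of the 3 members gave a value with probes under the median brightness left out.

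Of all probes, 1483 passed (624 higher, 859 lower). Leaving out dim probes, which reduces the number tested, gave 823 (359 higher, 464 lower). Over 12 columns 2109 passed. With 1 column dropped there were 1438 to 1487 calls, 604 to 624 of them higher and 832 to 863 lower. With 1 pair dropped there were 1151 to 1290, of which 471 to 574 were higher and 643 to 725 lower. The share of lower calls was 57.9%, against 73.4% with no scaling, 69.1% with equal totals and 46.5% after the position correction.

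The replicate block on pair means gave 1394 calls (580 higher, 814 lower) and on 12 columns 2224 (964 higher, 1260 lower). Not every correlation of same-numbered pairs was over 0.1, and the main model has no block, although all 6 pair means correlated best with the pair of the same number in the other group, which the labels do not explain.

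Of the 10 list genes 4 passed (1 higher, 3 lower). The higher count was 2 over 12 columns and, with PSAN, after the position correction, 3 of 7 calls over 12 columns with the replicate block, and 0 with no scaling, with equal totals and with the replicate block on pair means, where AT1G74070 did not pass; for the block the cause was not tested. With 1 column dropped 4 to 5 were called, of which 1 to 2 were higher and 3 to 4 lower. With 1 pair dropped 3 to 5 were called, of which 0 to 1 were higher and 2 to 4 lower. AT5G35100 changed sign to -0.090 with no scaling, where the median of all probes was -0.32; the cause was not tested. The floor limits what can be said of AT5G46390 in PSI light and of AT1G76450 with DCMU. No column stood far from the other 5 of its group in any of the 28 groups examined. That check took 1 column at a time, so it tends to miss a pair that stands apart together. It also could not flag a group at the floor in every column, so no conclusion on quality is drawn from it.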
